A study of Mus musculus with 6 samples.

Results

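Genes of bone morphogenetic protein (BMP), transforming growth factor beta (TGF-beta) and activin signalling were examined in cultured skull osteoblasts of APPswe and control mice. They were taken by gene symbol: the Bmp, Gdf, Tgfb, inhibin and activin subunit genes, the receptors Bmpr, Acvr and Tgfbr, the Ltbp, Smad, Id and Grem families, and Nog, Chrd, Fst, Fstl3, Twsg1, Tdgf1 and Lrrc32. This gave 64 of the 17830 genes in the deposited count table. Control mice carried mOCN-Cre and the Ai9 reporter, and APPswe mice carried TgAPPswe besides both. In the mOCN-Cre line the recombinase is made from the endogenous osteocalcin gene Bglap. Ai9 turns cells red with tdTomato after recombination, and TgAPPswe makes human APP with the Swedish mutation from the CAG promoter after Cre has removed a stop cassette. All mice were 6 months old. Gene positions below are on GRCm38.p6. Skull bone fragments were digested and placed in culture, and the cells positive for tdTomato were sorted for RNA. There were 3 libraries in each group, and the total counts were 17649704, 18134411 and 18398392 for controls 1 to 3 and 17263757, 17555489 and 17483141 for APPswe 1 to 3. No source used here ties the replicates to separate animals or cultures, so p-values measure the spread between these samples, which may be technical.

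Ligands of this superfamily are secreted as dimers and bring together type I and type II receptor kinases on the cell surface. The type I receptor then phosphorylates Smad proteins, which enter the nucleus with Smad4. BMP receptors act mainly through Smad1, Smad5 and Smad9, and TGF-beta and activin receptors through Smad2 and Smad3. Secreted antagonists such as Noggin, Chordin, Follistatin and Gremlin bind ligands before they reach a receptor. Latent TGF-beta binding proteins hold TGF-beta in the matrix, and the Id genes are early targets of BMP signalling. In bone, BMPs promote osteoblast differentiation, and TGF-beta released from matrix links resorption with formation.

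Control replicate 2 stood apart from the other libraries. Its library name carries the letter S where those of the others carry L, and the labels do not say what the letters mean. The mice are drawn as male in the study's scheme. Summed over 4 Y-linked genes, led by Eif2s3y, there were 2 counts in this library, with Ddx3y and Kdm5d at 0, while the lowest sum elsewhere was 2257 and the highest 3406. No Y-linked gene was called by edgeR or DESeq2, and 0 had an unadjusted p under 0.05, while all 4 were lower in APPswe at the adjusted p when this library was left out, with a median log2 fold change of -0.49. Bglap, the gene that carries Cre, had 1 count there, against 115 or more in each of the remaining libraries. The chi-square of the counts per degree of freedom was 75.8 for controls 1 and 2, 80.4 for controls 2 and 3 and 6.20 for controls 1 and 3. It was lowest for APPswe replicates 2 and 3, at 1.58, which is still above sampling noise. Their coefficient of variation beyond counting noise was 0.0202, against 0.066 for controls 1 and 3. These values do not show whether APPswe replicates 2 and 3 are separate biological samples, and all libraries were kept as separate replicates. Fold changes of the pathway genes are therefore given with all 6 libraries and again without control replicate 2.

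The label osteoblast was read against marker genes, in CPM (counts scaled to library size after TMM normalization). Of 13 osteoblast and osteocyte markers, Col1a2, a collagen gene that other mesenchymal cells also use, was the most abundant. The late markers Mepe and Sost were at 0 in some libraries. The markers summed to 8674, 11480 and 9732 CPM in control replicates 1, 2 and 3 and 7937, 8734 and 8714 CPM in APPswe replicates 1, 2 and 3. Their median was 0.394 CPM in control replicate 2 and at least 10.4 CPM elsewhere. Of 11 tested, 1 was called higher in APPswe (Sp7) and 1 was higher at the adjusted p alone (Runx2). When control replicate 2 was left out, the list moved both ways: 1 was called higher (Sp7) and 3 lower (Bglap2, Dmp1 and Phex), and at the adjusted p alone 2 were higher (Runx2 and Alpl) and 2 lower (Bglap and Ibsp).

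Markers of other cell types were present and differed between the groups. The 13 macrophage markers, led by Lyz2 with none at 0, summed to 23720, 18140 and 25340 CPM in control replicates 1, 2 and 3 and 12720, 13660 and 13770 CPM in APPswe replicates 1, 2 and 3. None was called by edgeR with fold or by DESeq2, 7 were lower in APPswe at the adjusted p alone, and 8 had an unadjusted p under 0.05, as did 37.2% of all genes tested. Without control replicate 2, 1 was called lower (Lyz2), 9 more were lower at the adjusted p alone, and 2 were higher at it, Csf1r and Cx3cr1, with log2 fold changes of 0.23 and 0.32. The 8 endothelial markers were led by Emcn, with Tie1 at 0 in control replicate 2. They summed to 227, 29.0 and 238 CPM in control replicates 1, 2 and 3 and 15.2, 14.3 and 16.6 CPM in APPswe replicates 1, 2 and 3, high in controls 1 and 3 and low in the remaining 4 libraries. Kdr departed from this order, with its highest value in control replicate 2, at 25.5 of the 29.0 CPM there. Of 7 tested, 1 was called lower by edgeR and 5 by DESeq2, and all 8 were called lower by edgeR when control replicate 2 was left out. Tie1, among them, was not tested with all libraries and passed the filter of that fit through the controls where it is high. Among 13 skeletal muscle markers, 12 of 12 tested were called higher in APPswe. Acta1 led them, and Myod1, Myf5 and Mymk were at 0 in some control libraries. Their sums were 2.83, 14.5 and 3.33 CPM in control replicates 1, 2 and 3 and 203, 202 and 207 CPM in APPswe replicates 1, 2 and 3. Apart from Acta1 and Des, the tested muscle markers had at most 6 counts in control replicates 1 and 3. These passed the filter through the APPswe libraries where they are high, so the filter largely set their direction.

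Osteoclast, stromal and smooth muscle markers were also higher in part. The 8 osteoclast markers, led by Ctsk and with Calcr at 0 in some controls, summed to 289.8, 158 and 274 CPM in control replicates 1, 2 and 3 and 730.4, 731 and 719 CPM in APPswe replicates 1, 2 and 3, and 4 of 7 tested were called higher, or 5 without control replicate 2. Oscar and Ocstamp, among those called, had at most 12 and 5 counts in control libraries. They passed the filter through the APPswe libraries where they are high, so the filter largely set their direction. The 10 fibroblast and stromal markers, led by Col3a1 with none at 0, summed to 4354, 2402 and 4249 CPM in control replicates 1, 2 and 3 and 7700, 7574 and 7533 CPM in APPswe replicates 1, 2 and 3, and 3 were called higher (Col3a1, Pdgfra and Postn). Without control replicate 2, Dcn was called lower, with a log2 fold change of -1.08, and Lum was lower at the adjusted p alone, at -0.83. The 6 smooth muscle and pericyte markers, led by Acta2 and with Kcnj8 at 0 in some libraries, summed to 1017, 2163 and 1023 CPM in control replicates 1, 2 and 3 and 2446, 2497 and 2547 CPM in APPswe replicates 1, 2 and 3, and 1 of 5 tested was called higher, or 3 without control replicate 2 (Acta2, Cnn1 and Tagln). In that fit Myh11 and Rgs5 were lower at the adjusted p, with log2 fold changes of -0.86 and -0.84, so the list did not move one way. The 4 proliferation markers, led by Mki67 with none at 0, summed to 239.9, 648 and 223 CPM in control replicates 1, 2 and 3 and 263, 242 and 249.9 CPM in APPswe replicates 1, 2 and 3, highest in control replicate 2. None of them was called by edgeR or DESeq2, and 0 had an unadjusted p under 0.05. In bulk RNA, fewer cells of a type and less RNA per cell cannot be told apart.

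**Figure D1:**
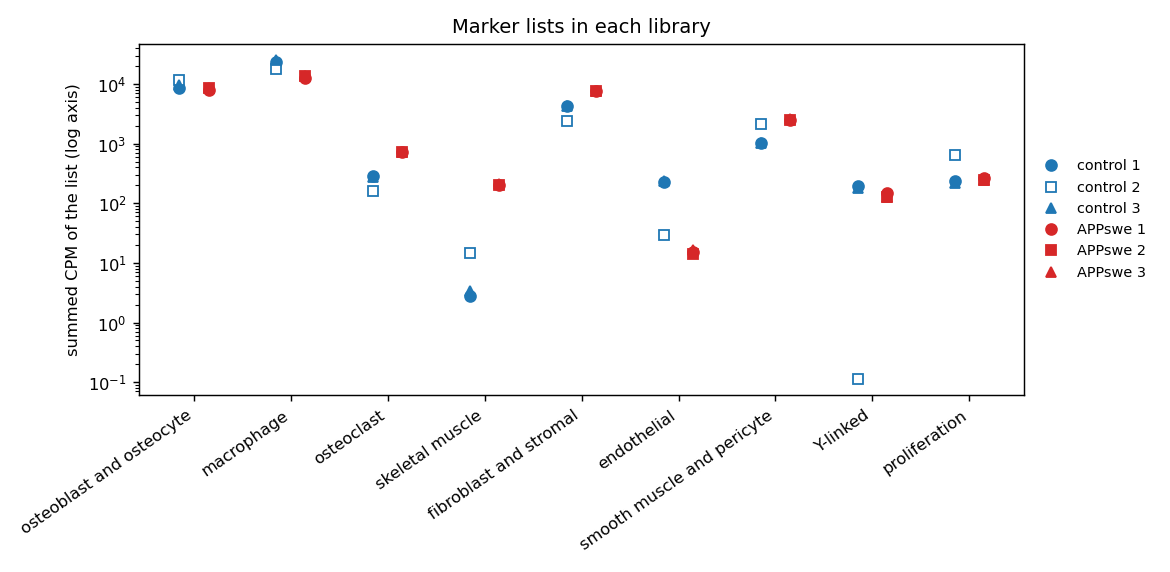
Summed CPM (log axis) of each marker list in the 3 control (blue) and 3 APPswe (red) libraries, 1 point per library, with control replicate 2 as an open square. Endothelial sums were 227 and 238 CPM in control replicates 1 and 3 and at most 29.0 CPM in the other libraries.

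The comparison asked which of these genes differed between APPswe and control libraries. Acvr2a, Inha, Gdf9 and Tdgf1 were called higher in APPswe, and Ltbp1, Grem1, Gdf3, Gdf6 and Bmp8a were called lower. Genes were called by edgeR's quasi-likelihood test where the adjusted p did not exceed 0.05 and the log2 fold change was at or beyond 1 in either direction. Of the 64 genes, 55 had enough counts to be tested, and 9 of these (16.4%) were called, against 7.34% of all 13484 genes tested. In APPswe, 4 were higher, against a background of 3.74%, and 5 were lower, against 3.60%. The adjusted p alone was met by 18 of 55 (32.7%), against 22.5% of all genes, with 11 higher (background 10.5%) and 7 lower (background 12.0%). The groups did not overlap in 34 of 55 genes (61.8%), against 45.0% of all genes. Tdgf1 passed the count filter through the APPswe libraries alone and Bmp8a through the control libraries alone, so the filter set their directions. Gdf9 had 10, 13 and 9 counts in control and 37, 29 and 38 in APPswe libraries. It passed through the APPswe libraries where it is high, so the filter largely set its direction. Among genes with at least 10 counts in every library, which leaves Tdgf1, Bmp8a and Gdf9 out, 7 of 48 were called, 3 higher and 4 lower. In that fit 5.80% of all 12628 genes were called, and Id3 was gained.

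When control replicate 2 was left out, 17 of 57 tested genes (29.8%) were called, and the background rose to 11.5%. There were 14 lower (background 6.58%) and 3 higher (background 4.87%). The added genes were Bmp2, Bmp3, Bmp4, Bmp6, Gdf1, Gdf5, Gdf10, Tgfb1 and Tgfbr2, and Inha was lost. Gdf5, at 16 and 11 counts in controls 1 and 3 and at most 4 elsewhere, and Gdf10, at 25 and 28 counts and at most 7 elsewhere, had not been tested with all libraries. They passed the filter of this fit through the controls where they are high, so their direction was set by the filter. Bmp3, at 84 and 76 counts in controls 1 and 3 and at most 12 elsewhere, passed this filter in the same way. Over the 55 genes tested in both fits, 15 (27.3%) were called, 12 of them lower and 3 higher, 37 met the adjusted p, and the groups did not overlap in 44. With Gdf5 and Gdf10 the adjusted p alone was met by 39 of 57, against 48.3% of all genes, and the groups did not overlap in 46, against 66.2%. Leaving out APPswe replicate 3 instead gave 5 called genes, the lowest number of these fits, where 3.72% of all 13742 genes tested were called. The 9 genes with too few counts in the fit of all libraries were Acvr1c, Bmp7, Bmp8b, Bmp10, Bmp15, Gdf2, Gdf5, Gdf7 and Gdf10, each at no more than 1.58 CPM in any library.

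By role, the median fold changes of ligands and receptors lay on opposite sides of the middle of all genes. The median log2 fold change was -0.78 over the 18 ligand and subunit genes tested of 26, and 0.43 over the 12 receptors and co-receptors tested of 13. It was 0.71 for the 4 Id targets, 0.27 for the 5 latency proteins and 0.03 for the 8 Smads, beside 0.00 for all genes tested. Leaving out control replicate 2 gave medians of -1.19, 0.30, 0.37, 0.08 and 0.07, in the same order. The first of these is over 20 ligand genes, with Gdf5 and Gdf10 added, and over the 18 tested in both fits it was -0.95. The ligand median was -0.51 without control replicate 3 and -0.45 for genes with at least 10 counts in every library, and with limma on log2(FPKM + 1) it was -0.26 for ligands and 0.27 for receptors. Tdgf1 had no count in control, and with it at its lower bound the receptor median was 0.43. Medians describe the genes that passed the filter and carry no test. They count each gene alike and do not describe summed levels, which are given below.

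**Figure D2:**
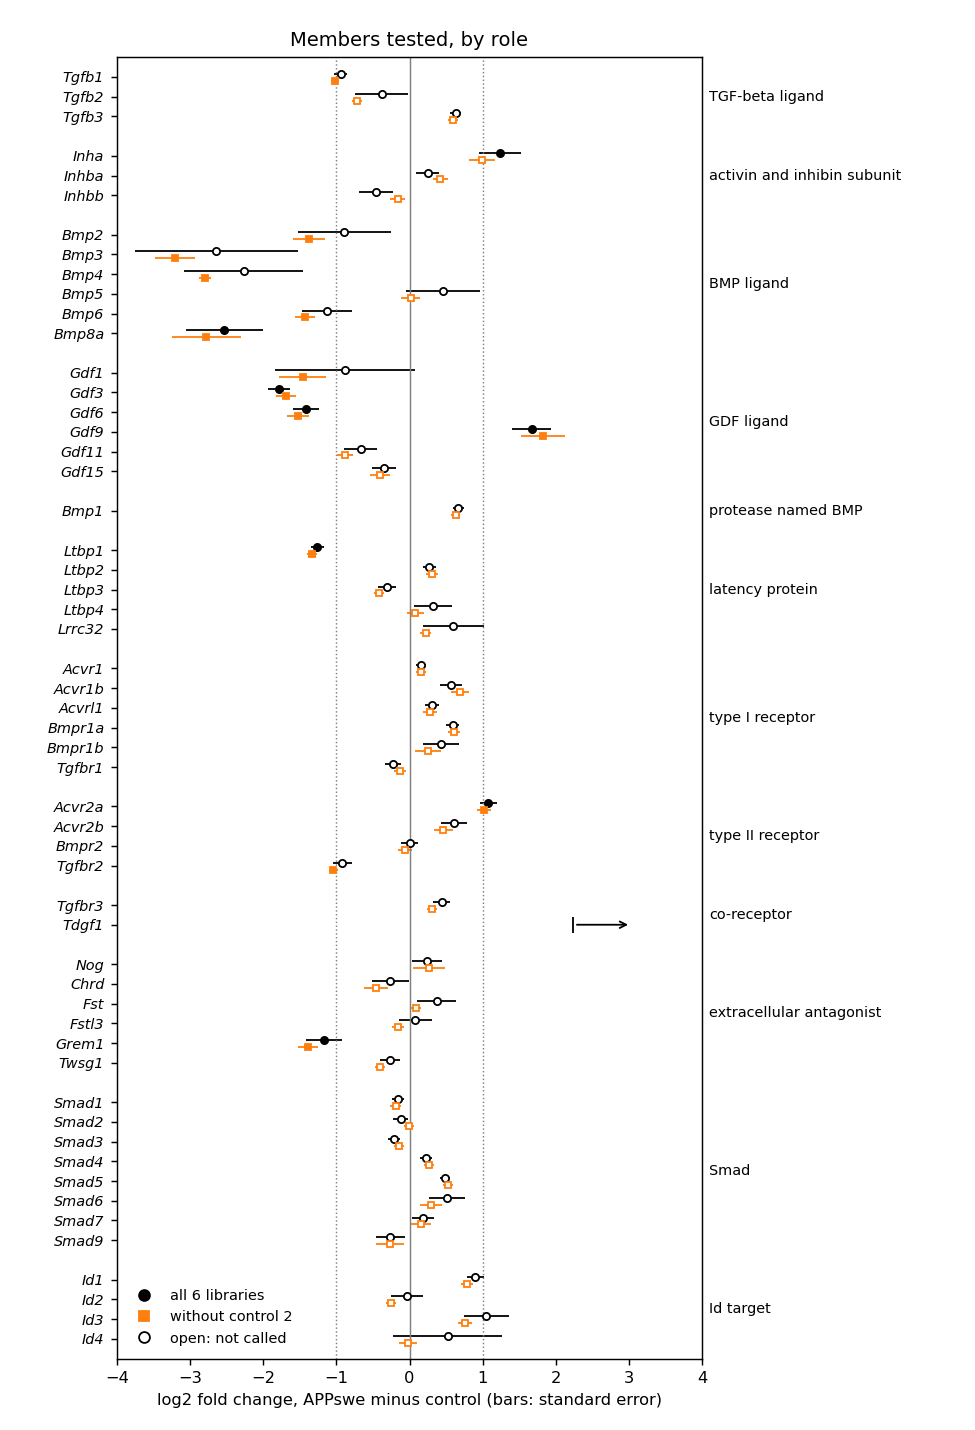
Log2 fold change (APPswe minus control) with its standard error for the tested genes by role, 1 of them not drawn, with all 6 libraries (black circles) and without control replicate 2 (orange squares). Filled symbols were called, dotted lines mark the fold threshold, the arrow gives the lower bound of 2.24 for Tdgf1, and Bmp4 moved from -2.27 to -2.80 without that library, while Ltbp1 moved from -1.26 to -1.33.

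Promoters of 4 genes that differed are shown to set their motifs beside the values: Tgfb1 and its receptor Tgfbr2, which were lower, Grem1, which was lower, and the receptor Acvr2a, which was higher in APPswe. RefSeq promoters (GRCm38.p6) were matched by symbol for 45 of the 64 genes, in 56 windows. Those without an entry include Tgfb3, Bmp2, Bmp3, Bmp7, Gdf3, Gdf5, Gdf6, Gdf9, Bmp1, Lrrc32, Acvrl1, Tgfbr3, Nog, Fst, Smad2, Smad4, Smad7 and Id1. The sequences are the 250 bases before the start of transcription, and none of them lies in a RefSeq gene or in an exon of the GENCODE vM21 annotation. Capitals mark CAGAC (other strand GTCTG), which holds the core bound by Smad3 and Smad4, GGCGCC, a GC-rich element bound by Smad1 and Smad5, and GGGCGG (other strand CCGCCC), the Sp1 box. TATAAA (other strand TTTATA), TGACGTCA and GTCTAGAC were searched too, on both strands, and none of them is in these 4 windows. Matches that overlap were each counted.
Tgfb1, chr7:25686752-25687001, plus strand: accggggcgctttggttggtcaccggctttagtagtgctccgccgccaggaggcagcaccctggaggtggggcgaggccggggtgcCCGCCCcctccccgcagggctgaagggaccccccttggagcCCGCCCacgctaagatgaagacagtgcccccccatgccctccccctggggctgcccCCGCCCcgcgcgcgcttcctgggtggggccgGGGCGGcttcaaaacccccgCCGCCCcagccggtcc
Tgfbr2, chr9:116175364-116175613, minus strand: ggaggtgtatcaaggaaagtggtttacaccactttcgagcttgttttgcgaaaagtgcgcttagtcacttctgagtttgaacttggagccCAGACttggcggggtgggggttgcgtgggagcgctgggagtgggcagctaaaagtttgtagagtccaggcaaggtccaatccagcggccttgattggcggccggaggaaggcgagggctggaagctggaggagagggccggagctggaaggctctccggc
Grem1, chr2:113758649-113758898, minus strand: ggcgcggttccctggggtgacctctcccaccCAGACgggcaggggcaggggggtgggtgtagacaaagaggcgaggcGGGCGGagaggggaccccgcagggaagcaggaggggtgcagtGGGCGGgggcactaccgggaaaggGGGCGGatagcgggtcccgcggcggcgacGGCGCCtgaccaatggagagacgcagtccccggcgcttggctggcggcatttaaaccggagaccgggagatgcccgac
Acvr2a, chr2:48813859-48814108, plus strand: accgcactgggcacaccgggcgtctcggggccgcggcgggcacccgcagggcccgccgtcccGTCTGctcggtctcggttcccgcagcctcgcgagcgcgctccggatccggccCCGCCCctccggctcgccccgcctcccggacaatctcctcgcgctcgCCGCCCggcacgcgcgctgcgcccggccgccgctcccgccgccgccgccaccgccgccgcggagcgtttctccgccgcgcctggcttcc

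The Tgfb1 window had 5 Sp1 boxes and no CAGAC, while that of Tgfbr2 had 1 CAGAC and no Sp1 box. Grem1 had 1 CAGAC, 1 GGCGCC and 3 Sp1 boxes, and Acvr2a had 1 CAGAC and 2 Sp1 boxes. Of all 32851 promoter windows of this length, 42.2% held CAGAC, 9.59% GGCGCC, 32.7% GGGCGG, 1.55% TGACGTCA, 12.4% TATAAA and 0.167% GTCTAGAC. Of the 56 windows of the pathway genes, 27 held CAGAC, 12 GGCGCC and 38 GGGCGG. A match describes letters in these windows, and no binding was measured.

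Of the 3 TGF-beta ligands, Tgfb1 was lower and Tgfb3 higher in APPswe. Tgfb1 (NCBI gene 21803, chr7:25687002-25705077), the isoform most abundant in bone matrix, was at 244, 207 and 255 CPM in control replicates 1, 2 and 3 and at 122, 124 and 123 CPM in APPswe replicates 1, 2 and 3. Every APPswe library was below every control library (log2 fold change -0.94, standard error 0.09, edgeR adjusted p = 0.00162). The fold fell short of the threshold with all libraries, and without control replicate 2 the log2 fold change was -1.02 (edgeR adjusted p = 2.62e-07, and up to 0.0184 with another library left out), which was called. Tgfb3, a second isoform that signals through the same receptors, was at 110.3, 107 and 125 CPM in control replicates 1, 2 and 3 and at 176, 179.9 and 172 CPM in APPswe replicates 1, 2 and 3. Its groups did not overlap, and it rose by less than the fold threshold (log2 fold change 0.63, standard error 0.08, edgeR adjusted p = 0.00369), with a log2 fold change of 0.59 without control replicate 2. Tgfb2 was at 46.8, 16.8 and 48.4 CPM in control replicates 1, 2 and 3 and at 28.9, 28.2 and 29.1 CPM in APPswe replicates 1, 2 and 3, so that control replicate 2 lay below the APPswe libraries and the other controls above them (log2 fold change -0.38, standard error 0.36, edgeR adjusted p = 0.491). Without that library its log2 fold change was -0.72 (edgeR adjusted p = 1.63e-05, and up to 0.819 with another library left out).

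Levels per transcript length, in FPKM (fragments per kilobase of transcript, scaled to the mapped reads), gave the balance of the isoforms. Tgfb1 was at 119.5 ± 12.2 FPKM (SD, n = 3) in control and 65.9 ± 0.460 FPKM (SD, n = 3) in APPswe libraries, and Tgfb3 at 35.5 ± 2.59 FPKM (SD, n = 3) and 57.7 ± 1.41 FPKM (SD, n = 3). The share of Tgfb1 in the summed FPKM of the isoforms, in percent, was 73.9, 74.1 and 72.8 in control replicates 1, 2 and 3 and 50.6, 50.6 and 51.3 in APPswe replicates 1, 2 and 3. The share of Tgfb3, in percent, was 20.5, 23.5 and 21.8 in control replicates 1, 2 and 3 and 44.7, 44.9 and 44.0 in APPswe replicates 1, 2 and 3. The summed FPKM of the isoforms was 168, 143 and 176 in control replicates 1, 2 and 3 and 130.1, 131 and 128 in APPswe replicates 1, 2 and 3. Tgfb1 was the most abundant isoform in every library, and in control replicate 2 its share lay with those of the other controls.

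**Figure D3:**
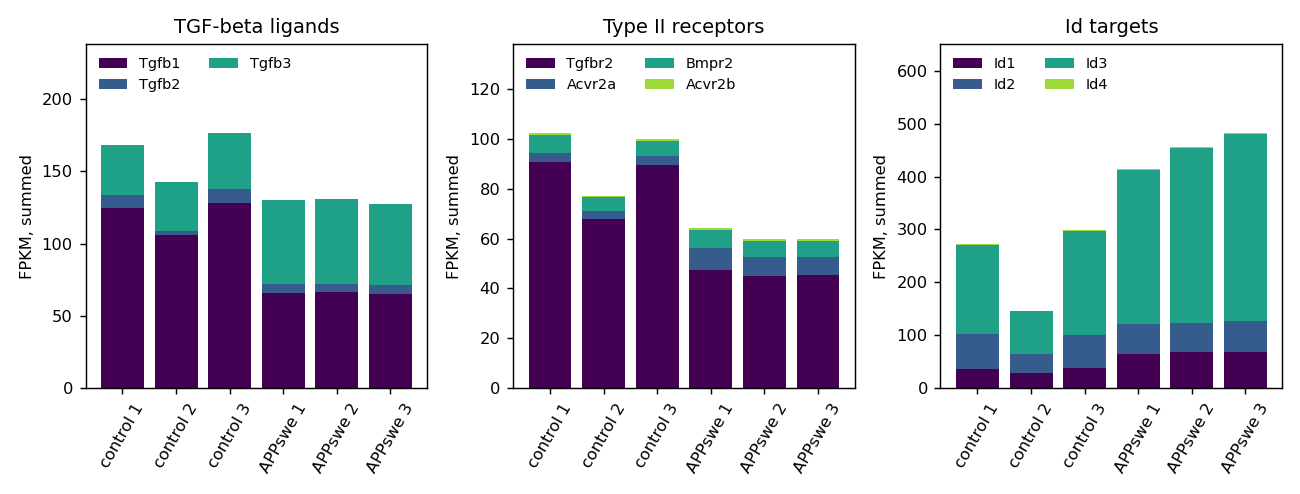
Stacked FPKM of the TGF-beta ligands, the type II receptors and the Id genes, 1 bar per library. In APPswe libraries the Tgfb1 segment was between 65.4 and 66.3 FPKM, against at least 106 FPKM in control, and the Id3 segment was at least 290.0 FPKM, against at most 196 FPKM.

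Ltbp1 (NCBI gene 268977, chr17:75005480-75392512), which anchors latent TGF-beta in the matrix, fell. It was at 168, 147 and 172 CPM in control replicates 1, 2 and 3 and at 70.6, 64.4 and 68.4 CPM in APPswe replicates 1, 2 and 3, with no overlap between the groups (log2 fold change -1.26, standard error 0.09, edgeR adjusted p = 0.0006). Leaving out control replicate 2 gave a log2 fold change of -1.33. The other latency proteins did not pass the adjusted p with all libraries, and Ltbp2, Ltbp3 and Lrrc32 met it without control replicate 2. Ltbp2 had a fold change of 0.27 in log2 (edgeR adjusted p = 0.071), Ltbp3 of -0.31 (0.103), Ltbp4 of 0.32 (0.412) and Lrrc32, which displays latent TGF-beta on the cell surface, of 0.60 (0.343). Lrrc32 was lowest in control replicate 2, at 34.2 CPM, and at least 112 CPM elsewhere. When this library was left out, the log2 fold changes were 0.31 for Ltbp2, -0.42 for Ltbp3, 0.08 for Ltbp4 and 0.22 for Lrrc32. Per length, Ltbp2 was the most abundant of the 5, and their summed FPKM was 147, 119.8 and 159.7 in control replicates 1, 2 and 3 and 143, 152 and 149 in APPswe replicates 1, 2 and 3.

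Of the receptors for TGF-beta, the type II receptor Tgfbr2 fell and the type I receptor Tgfbr1 did not pass the test. Tgfbr2 (NCBI gene 21813, chr9:116087695-116175363), which binds TGF-beta directly, was at 414, 310.2 and 417 CPM in control replicates 1, 2 and 3 and at 205, 198 and 200.2 CPM in APPswe replicates 1, 2 and 3. All APPswe values lay below all control values (log2 fold change -0.92, standard error 0.13, edgeR adjusted p = 0.00431), and without control replicate 2 the log2 fold change was -1.04 (edgeR adjusted p = 1.54e-07, and up to 0.0339 with another library left out), past the fold threshold. Tgfbr1, its signalling partner, had a fold change of -0.23 in log2 (edgeR adjusted p = 0.175), and -0.13 without control replicate 2. Tgfbr3, the co-receptor betaglycan, rose by less than the fold threshold (log2 fold change 0.44, standard error 0.12, edgeR adjusted p = 0.0453). The sum of the 13 macrophage markers, led by Lyz2, was at least 18140 CPM in control and at most 13770 CPM in APPswe libraries, with 7 of them lower at the adjusted p alone. When control replicate 2 was left out, 1 was called lower, 9 were lower and 2 higher at the adjusted p alone. Their part in the values of Tgfb1 and Tgfbr2 was not tested.

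Among activin receptors, Acvr2a rose. It is a type II receptor shared by activins and several BMPs (NCBI gene 11480, chr2:48814109-48903264), and was at 21.0, 18.0 and 20.0 CPM in control replicates 1, 2 and 3 and at 45.7, 40.2 and 38.5 CPM in APPswe replicates 1, 2 and 3. The groups did not overlap (log2 fold change 1.08, standard error 0.11, edgeR adjusted p = 0.00155), and without control replicate 2 the log2 fold change was 1.02. Its share of the summed FPKM of the 4 type II receptors, in percent, was 3.71, 4.21 and 3.56 in control replicates 1, 2 and 3 and 13.5, 12.7 and 12.1 in APPswe replicates 1, 2 and 3. Tgfbr2 was the most abundant type II receptor in every library, with shares, in percent, of 88.6, 87.8 and 89.9 in control replicates 1, 2 and 3 and 73.7, 75.6 and 76.1 in APPswe replicates 1, 2 and 3. Acvr2a exons overlap those of Orc4 on the opposite strand over 7.84% of their length, and the sources used here do not say whether counting used strand. Acvr2b had a fold change of 0.61 in log2 (edgeR adjusted p = 0.0556) and Bmpr2, the main type II receptor for BMPs, of 0.00 (edgeR adjusted p = 1). With control replicate 2 left out these were 0.46, which met the adjusted p, and -0.06.

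Among type I receptors, Bmpr1a and Acvr1b rose by less than the fold threshold. Bmpr1a, a receptor for BMPs, was at 50.1, 50.5 and 47.0 CPM in control replicates 1, 2 and 3 and at 80.9, 70.4 and 70.6 CPM in APPswe replicates 1, 2 and 3 (log2 fold change 0.59, standard error 0.09, edgeR adjusted p = 0.00528). Acvr1b, a receptor for activins, had no overlap between the groups either (log2 fold change 0.57, standard error 0.15, edgeR adjusted p = 0.0367). When control replicate 2 was left out, the log2 fold changes were 0.61 for Bmpr1a, 0.69 for Acvr1b and 0.31 for Tgfbr3. With another single library left out the edgeR adjusted p reached 0.0314, 0.139 and 0.141 for these genes. Acvr1 had a fold change of 0.16 in log2 (edgeR adjusted p = 0.138), Acvrl1 of 0.31 (0.0685) and Bmpr1b of 0.43 (0.258). They were at 0.16, 0.28 and 0.25 in log2 fold change without control replicate 2, where Acvrl1 met the adjusted p. The summed FPKM of the type I receptors was 72.1, 77.6 and 72.2 in control replicates 1, 2 and 3 and 91.3, 87.5 and 88.0 in APPswe replicates 1, 2 and 3. For the type II receptors the sum was 102, 77.2 and 99.8 in control replicates 1, 2 and 3 and 64.4, 59.8 and 59.9 in APPswe replicates 1, 2 and 3. The type I sums were higher and the type II sums lower in each APPswe library than in each control library. Over all 13 receptors and co-receptors the summed FPKM was 187, 164 and 184 in control replicates 1, 2 and 3 and 172, 164 and 164 in APPswe replicates 1, 2 and 3. The mean of these sums was 178 in control and 166 in APPswe, so the total was not higher although the median fold change was positive.

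Tdgf1 (NCBI gene 21667, chr9:110939608-110946158), the co-receptor Cripto, had no count in any control library and 15, 16 and 12 counts in APPswe replicates 1, 2 and 3. Taking 3 counts per library as the floor, 0.170 CPM, the APPswe mean of 0.802 CPM was at least 4.71-fold higher (edgeR adjusted p = 0.00635). This floor covers counting error only, and the call was kept without control replicate 2. A processed copy, Tdgf1-ps1, shares 8.86% of the 50-base words of the Tdgf1 transcripts, so a part of these reads is uncertain in origin. It passed the filter through the APPswe libraries alone.

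Inha (NCBI gene 16322, chr1:75507077-75510366), the inhibin alpha subunit that with a beta subunit forms an activin antagonist, was higher in APPswe. It was at 3.35, 2.02 and 4.46 CPM in control replicates 1, 2 and 3 and at 6.56, 8.47 and 8.15 CPM in APPswe replicates 1, 2 and 3, with no overlap (log2 fold change 1.24, standard error 0.29, edgeR adjusted p = 0.0275). Without control replicate 2 the log2 fold change was 0.99, just under the fold threshold, and the call was also lost without control replicate 1 or any 1 of the APPswe replicates, with edgeR adjusted p-values from 0.000974 to 0.109 over the libraries left out in turn. The beta subunits Inhba and Inhbb, which form the activins, did not pass, with log2 fold changes of 0.25 (edgeR adjusted p = 0.289) and -0.46 (0.189). Inhbb was highest in control replicate 2, at 104 CPM, against at most 66.1 CPM in the other libraries. Without that library Inhba was at 0.42 (edgeR adjusted p = 0.00412, and up to 0.588 with another library left out) and Inhbb at -0.16 in log2 fold change. Per length, Inhba was at 19.3 ± 3.98 FPKM (SD, n = 3) in control and 24.1 ± 2.88 FPKM (SD, n = 3) in APPswe libraries, above Inha at 1.85 ± 0.650 FPKM (SD, n = 3) and 4.82 ± 0.662 FPKM (SD, n = 3).

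Bmp4 and the summed BMP ligands were low in APPswe libraries and also in control replicate 2. Bmp4 (NCBI gene 12159, chr14:46383525-46390669), an inducer of osteoblast differentiation, was at 53.8, 3.99 and 55.1 CPM in control replicates 1, 2 and 3 and at 7.62, 7.80 and 7.98 CPM in APPswe replicates 1, 2 and 3. Control replicates 1 and 3 were high and the other 4 libraries low, with control replicate 2 the lowest, so the groups overlapped (log2 fold change -2.27, standard error 0.82, edgeR adjusted p = 0.0938). Without control replicate 2 the log2 fold change was -2.80 (edgeR adjusted p = 3.52e-09, and up to 0.233 with another library left out), which was called. Bmp2, Bmp3 and Bmp6 had log2 fold changes of -0.89, -2.64 and -1.13 with all libraries (edgeR adjusted p = 0.353, 0.134 and 0.0535), and -1.37, -3.21 and -1.43 without control replicate 2, where all 3 were called. In that fit Bmp3 passed the filter through controls 1 and 3, where it is high, so the filter largely set its direction. The summed FPKM of the 10 BMP ligands was 39.8, 5.71 and 40.5 in control replicates 1, 2 and 3 and 10.4, 10.2 and 10.5 in APPswe replicates 1, 2 and 3. In sum, the 8 endothelial markers, led by Emcn, were likewise high in controls 1 and 3 (227 and 238 CPM summed) and at most 29.0 CPM in the remaining 4 libraries, with Tie1 at 0 and Kdr at its highest in control replicate 2. The part of such cells in the BMP values was not tested. Bmp5 had a fold change of 0.46 in log2 (edgeR adjusted p = 0.553), which was 0.02 without control replicate 2, the lowest library at 2.47 CPM, and 46.7% of its exonic bases overlap an antisense gene, Gm26903. For Gdf5, 40.3% overlap Gm15557 on the opposite strand. Apart from these and from Gdf1 and Fstl3, given below, overlaps found with other genes covered at most 9.34% of exonic bases, the share of Ltbp2 that overlaps the antisense gene D030025P21Rik. Bmp7 was at or under 0.113 CPM in every library, under the floor, and was not tested.

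Bmp8a (NCBI gene 12163, chr4:123312645-123343252) was called lower at a low level, with 18, 16 and 42 counts in control and 5, 3 and 5 in APPswe libraries (log2 fold change -2.53, standard error 0.52, edgeR adjusted p = 0.0176). Without control replicate 2 the log2 fold change was -2.78, and the call was lost without any 1 of the APPswe replicates, with edgeR adjusted p-values up to 0.0865. It shares 8.74% of its 50-base words with its paralog Bmp8b, so reads from them are uncertain in origin. Bmp8a passed the filter through the control libraries alone, so the filter set its direction. Bmp1, which despite its name is a protease that trims procollagen and Chordin, was at 195, 184 and 207 CPM in control replicates 1, 2 and 3 and at 297, 322 and 312 CPM in APPswe replicates 1, 2 and 3. It rose by less than the fold threshold (log2 fold change 0.67, standard error 0.08, edgeR adjusted p = 0.00272), and its log2 fold change was 0.63 without control replicate 2.

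Of the growth and differentiation factors, Gdf3 and Gdf6 fell and Gdf9 rose. Gdf3 (NCBI gene 14562, chr6:122605403-122610087), a ligand that can also inhibit BMPs, was at 13.5, 14.3 and 10.9 CPM in control replicates 1, 2 and 3 and at 3.76, 3.96 and 3.60 CPM in APPswe replicates 1, 2 and 3 (log2 fold change -1.78, standard error 0.15, edgeR adjusted p = 0.00103). Gdf6 (NCBI gene 242316, chr4:9844372-9862345), a BMP-like ligand of joints and skull sutures, was at 6.58, 5.45 and 6.94 CPM in control replicates 1, 2 and 3 and at 2.47, 2.12 and 2.47 CPM in APPswe replicates 1, 2 and 3 (log2 fold change -1.42, standard error 0.18, edgeR adjusted p = 0.00328). Neither had overlapping groups, and their log2 fold changes without control replicate 2 were -1.69 and -1.52. Gdf9 (NCBI gene 14566, chr11:53430774-53437904), best known from oocytes, was at 0.578, 0.731 and 0.508 CPM in control replicates 1, 2 and 3 and at 2.07, 1.62 and 2.13 CPM in APPswe replicates 1, 2 and 3 (log2 fold change 1.67, standard error 0.27, edgeR adjusted p = 0.00741), with a log2 fold change of 1.83 without control replicate 2. Its call was lost without APPswe replicate 3, with edgeR adjusted p-values from 0.000496 to 0.0551 over the 6 fits with 1 library left out. Gdf9 passed the filter through the APPswe libraries where it is high, so the filter largely set its direction. Gdf11 and Gdf15 did not pass, with log2 fold changes of -0.67 (edgeR adjusted p = 0.0662) and -0.35 (0.156). Both met the adjusted p without control replicate 2, with log2 fold changes of -0.88 and -0.40. Per length Gdf15 was the most abundant of this family, at 25.7 ± 2.63 FPKM (SD, n = 3) in control and 21.5 ± 4.03 FPKM (SD, n = 3) in APPswe libraries. All annotated Gdf1 exons lie within those of Cers1 on the same strand, so reads of Gdf1 and Cers1 cannot be told apart. Gdf1 had a fold change of -0.88 in log2 (edgeR adjusted p = 0.545) with all libraries and was called at -1.46 without control replicate 2.

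**Figure D4:**
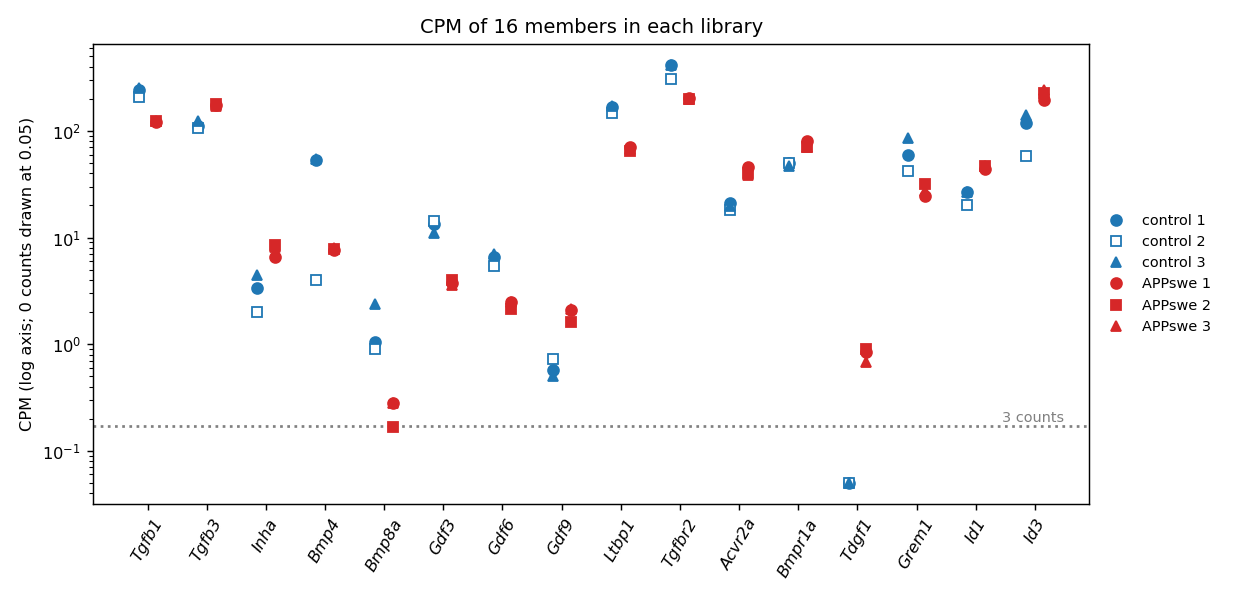
CPM (log axis) of 16 genes in each control (blue) and APPswe (red) library, with control replicate 2 as an open square and libraries without a count drawn at 0.05. Bmp4 in control replicate 2, at 3.99 CPM, lies below the APPswe libraries, while Ltbp1 in the same library, at 147 CPM, lies above them.

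Among the 7 secreted antagonists, Grem1 fell. Grem1 (NCBI gene 23892, chr2:113748675-113758648) encodes Gremlin, which binds BMPs, and was at 59.8, 42.4 and 85.8 CPM in control replicates 1, 2 and 3 and at 24.4, 31.5 and 27.4 CPM in APPswe replicates 1, 2 and 3. The groups did not overlap (log2 fold change -1.17, standard error 0.25, edgeR adjusted p = 0.0199), and without control replicate 2 the log2 fold change was -1.39. The call was lost without control replicate 3 or any 1 of the APPswe replicates, with edgeR adjusted p-values up to 0.0877. Nog had a fold change of 0.24 in log2 (edgeR adjusted p = 0.419), Chrd of -0.26 (0.478) and Fst, which binds activins, of 0.37 (0.371). Leaving out control replicate 2 gave log2 fold changes of 0.27 for Nog, -0.46 for Chrd, which met the adjusted p, and 0.09 for Fst. Fst was lowest in control replicate 2, at 19.5 CPM, and at least 41.5 CPM elsewhere. Fstl3 and Twsg1 had log2 fold changes of 0.08 and -0.27 (edgeR adjusted p = 0.838 and 0.213), and 47.3% of the exonic bases of Fstl3 overlap Prss57 on the opposite strand. Their log2 fold changes were -0.16 and -0.40 without control replicate 2, where Twsg1 met the adjusted p.

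Of the 8 Smads, Smad5 met the adjusted p with all libraries, and Smad4 did so as well without control replicate 2. Smad5, which acts below BMP receptors, was at 41.1, 44.9 and 42.8 CPM in control replicates 1, 2 and 3 and at 60.9, 61.1 and 58.5 CPM in APPswe replicates 1, 2 and 3 (log2 fold change 0.49, standard error 0.07, edgeR adjusted p = 0.00575), with a log2 fold change of 0.53 without control replicate 2. The other receptor-regulated Smads and Smad4 had log2 fold changes between -0.26 and 0.23, or between -0.27 and 0.27 without control replicate 2. The inhibitory Smads, themselves induced by the pathway, had log2 fold changes of 0.51 for Smad6 (edgeR adjusted p = 0.191) and 0.19 for Smad7 (0.409). The log2 fold changes without control replicate 2 were 0.27 for Smad4, 0.30 for Smad6 and 0.16 for Smad7. The summed FPKM of the Smads was 58.8, 60.6 and 61.5 in control replicates 1, 2 and 3 and 67.1, 68.8 and 66.9 in APPswe replicates 1, 2 and 3.

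The Id genes encode proteins that block basic helix-loop-helix factors, and Id1 rose by less than the fold threshold. It was at 26.5, 20.4 and 26.8 CPM in control replicates 1, 2 and 3 and at 43.6, 46.9 and 47.0 CPM in APPswe replicates 1, 2 and 3 (log2 fold change 0.90, standard error 0.12, edgeR adjusted p = 0.00431), with a log2 fold change of 0.79 without control replicate 2. Id3 (NCBI gene 15903, chr4:136143822-136145392) was at 119, 57.7 and 140.4 CPM in control replicates 1, 2 and 3 and at 194, 225 and 240.5 CPM in APPswe replicates 1, 2 and 3. Its groups did not overlap, and with all libraries it missed the adjusted p narrowly (log2 fold change 1.05, standard error 0.31, edgeR adjusted p = 0.0501). Control replicate 2 was the lowest, and without it the log2 fold change was 0.76 (edgeR adjusted p = 0.000119, and up to 0.156 with another library left out), which met the adjusted p but not the fold. Without control replicate 3 Id3 was called, at a log2 fold change of 1.31. Id2 and Id4 did not pass, with log2 fold changes of -0.03 (edgeR adjusted p = 0.941) and 0.52 (0.656). In the fit without control replicate 2, Id2 was lower at the adjusted p, with a log2 fold change of -0.25, and Id4 was at -0.02, so that Id1 and Id3 were higher and Id2 lower in that fit. Id4 was lowest in control replicate 2, at 0.450 CPM, and at least 6.78 CPM elsewhere. Id3 was the most abundant Id gene in every library, and the summed FPKM of the 4 was 272, 145 and 299 in control replicates 1, 2 and 3 and 414, 456 and 482 in APPswe replicates 1, 2 and 3.

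Of a wider list of 71 pathway genes, 68 were found in the count table. Pmepa1 and Skil stand in more than 1 of its groups. Of 59 tested, 6 (10.2%) were called higher and 1 (1.69%) lower in APPswe, against 3.74% and 3.60% of all genes tested. At the adjusted p whatever the fold, 12 (20.3%) were higher and 7 (11.9%) lower, against 10.5% and 12.0% of all genes. These differences from the background were not tested. The genes called higher include Hjv and Chrdl2, which passed the filter only through the APPswe libraries where they are high. The counts without control replicate 2 were 8 higher and 2 lower of 59 tested, where 4.87% of all genes were called higher and 6.58% lower. Among 23 tested extracellular modulators and co-receptors, 4 were higher and 1 was lower, or 4 higher and 2 lower without control replicate 2. Fstl1, a secreted Follistatin-like protein that binds BMPs, was at 678, 601 and 658 CPM in control replicates 1, 2 and 3 and at 1501, 1499 and 1483 CPM in APPswe replicates 1, 2 and 3 (log2 fold change 1.21, standard error 0.08, edgeR adjusted p = 0.000509), with a log2 fold change of 1.16 without control replicate 2. Hjv, a BMP co-receptor made in skeletal muscle and liver, was called higher, at 0.0578, 0.0562 and 0 CPM in control replicates 1, 2 and 3 and at 1.85, 2.34 and 2.47 CPM in APPswe replicates 1, 2 and 3. The 13 skeletal muscle markers, led by Acta1, summed to at most 14.5 CPM in control and at least 202 CPM in APPswe libraries, and their part in Hjv was not tested. Chrdl2, a Chordin-like antagonist, was called higher with 1, 0 and 1 counts in control and 31, 21 and 20 in APPswe libraries. Hjv and Chrdl2 passed the filter through the APPswe libraries alone, so the filter set their direction. Gpc3, a cell surface proteoglycan, was called higher (log2 fold change 1.83, standard error 0.32, edgeR adjusted p = 0.00958), also without control replicate 2 (log2 fold change 1.87), and the call was lost without APPswe replicate 3. Eng, the co-receptor endoglin, was called lower (log2 fold change -1.14, standard error 0.24, edgeR adjusted p = 0.0191) and was not called without control replicate 2, at a log2 fold change of -0.80, or without any 1 of the APPswe replicates. The genes called lower without control replicate 2 were instead Nbl1, a secreted BMP antagonist, and the proteoglycan gene Dcn, which also stands in the fibroblast and stromal list. Nbl1 was at 193, 48.7 and 207 CPM in control replicates 1, 2 and 3 and at 66.0, 80.5 and 74.5 CPM in APPswe replicates 1, 2 and 3, low in control replicate 2 and in APPswe libraries (log2 fold change -1.02, standard error 0.48, edgeR adjusted p = 0.174). Its log2 fold change without control replicate 2 was -1.44 (edgeR adjusted p = 2.60e-07, and up to 0.377 with another library left out). Dcn was lowest in that library, at 55.8 CPM, and had a log2 fold change of -0.58 with all libraries and -1.08 without it.

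Of the 8 BMP targets, 1 was called. It was Sp7, which encodes the osteoblast factor Osterix, at 5.95, 1.85 and 7.11 CPM in control replicates 1, 2 and 3 and at 17.5, 21.2 and 20.2 CPM in APPswe replicates 1, 2 and 3 (log2 fold change 1.98, standard error 0.43, edgeR adjusted p = 0.0205). It is also the called gene among the osteoblast markers. The call was kept without control replicate 2, at a log2 fold change of 1.59, and lost without control replicate 1 or any 1 of the APPswe replicates, with edgeR adjusted p-values up to 0.0837. Of the 13 TGF-beta targets, 1 was called, the matrix gene Postn, at 626, 300.3 and 555 CPM in control replicates 1, 2 and 3 and at 1583, 1324 and 1351 CPM in APPswe replicates 1, 2 and 3 (log2 fold change 1.52, standard error 0.26, edgeR adjusted p = 0.00967), with a log2 fold change of 1.27 without control replicate 2. In that fit 3 TGF-beta targets were called higher, Postn, Acta2 (log2 fold change 1.32) and Tagln (1.25). Acta2 and Tagln, genes of contractile cells, had log2 fold changes of 0.80 and 0.90 with all libraries (edgeR adjusted p = 0.131 and 0.0406) and also stand in the smooth muscle and pericyte list, whose 6 markers, led by Acta2, summed to at least 1017 and at most 2163 CPM in control and at least 2446 CPM in APPswe libraries. The part of such cells in their values was not tested. Postn also stands in the fibroblast and stromal list, whose 10 markers, led by Col3a1, had sums of at most 4354 CPM in control and at least 7533 CPM in APPswe libraries, though only 3 of them were called higher, and the part of these cells in its value was not tested. Other targets were lower. Fn1, the matrix gene fibronectin, was lower at the adjusted p alone (log2 fold change -0.61, standard error 0.13, edgeR adjusted p = 0.0197), and its log2 fold change was -0.72 without control replicate 2. The BMP target Msx2 was highest in control replicate 2, at 16.2 CPM, with a log2 fold change of -2.45 with all libraries (edgeR adjusted p = 0.0783). In the fit without that library Msx2 and Dlx3, another BMP target, were lower at the adjusted p alone, with log2 fold changes of -0.88 and -0.86. Besides the called genes, 1 BMP target was higher and 0 lower at the adjusted p, and 3 TGF-beta targets were higher and 1 was lower. With control replicate 2 left out, 4 BMP targets were higher and 2 lower in this way, and 6 TGF-beta targets were higher and 1 was lower. None of the 16 intracellular modulators was called with fold by edgeR or DESeq2, 8 had an unadjusted p under 0.05 in edgeR, against 37.2% of all genes tested, and 1 was higher and 3 were lower at the adjusted p alone, or 5 higher and 4 lower without control replicate 2. Over all genes tested the adjusted p was met by 22.5% with all libraries and by 48.3% without that library, and whether the modulators differ from this background was not tested. Of 7 other ligands, 1 was tested and did not pass in edgeR or DESeq2 with all libraries, and it was lower at the edgeR adjusted p alone without control replicate 2. Median log2 fold changes were 0.77 for BMP targets and 0.29 for TGF-beta targets, beside 0.00 for all genes, and 0.63 and 0.42 beside 0.01 without control replicate 2.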

How the data were processed

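RNA of sorted tdTomato-positive cells was sequenced on the DNBseq platform from SMARTER mRNA-Seq libraries. The deposited counts are raw reads per gene. FPKM was computed by the authors and deposited with 2 decimals. Blank FPKM cells all had 0 counts and were read as 0. The submitters' processing notes name the build GRCm38, and the aligner and counting tool are not given in the sources used here. The authors' columns of log2 fold change and p-value hold their own comparison of the genotypes and were not used.

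Counts were scaled by TMM, filtered by filterByExpr (13484 of 17830 genes kept) and tested with edgeR 4.0.16 (quasi-likelihood, R 4.3.3) without a covariate. P-values were adjusted over all genes tested by the Benjamini-Hochberg method. The standard error was the size of the log2 fold change over the square root of F. Groups came from the sample labels. Depth was 17263757 to 18398392 counts per library, so that 3 counts equal 0.167 to 0.173 CPM. The fits were first tested on simulated data with known changes.

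Alternatives were DESeq2 1.42.0, its size factors, no TMM, no filter, at least 10 counts in every library, limma 3.58.1 (trend) on log2(FPKM + 1) and log2(FPKM + 0.1) for genes with an FPKM of at least 0.5 in 3 libraries, the replicate block, a covariate for how the library was named, glmTreat, a stricter adjusted p and each library left out. Exon overlaps and shared 50-base words came from GENCODE vM21, and promoters from RefSeq.

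By the rule for named genes, members called with fold are given by library. Members at the adjusted p alone, and a list of ligands, receptors, antagonists, Smads, Ids and latency genes, are given with their role, and wider pathway genes only where called. Outside this rule, Bmp3, Bmp5, Bmp6, Gdf1, Gdf5, Gdf10, Gdf11, Gdf15, Acvrl1, Acvr2b, Bmpr1b, Ltbp2, Ltbp3, Ltbp4, Lrrc32, Fstl3, Twsg1, Nbl1, Dcn, Acta2, Tagln, Fn1, Msx2 and Dlx3, and markers in their lists, were named after their values were seen. The genes whose promoters are shown were also chosen after their values were seen. The members and lists were chosen with earlier results of these data known. Medians are given for the broad roles, chosen after medians of finer roles of as few as 1 gene had been seen. The values of 1 gene are not reported here.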

Additional observations from a re-analysis of the deposited data

How the results depend on the processing

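Of 9 genes called, the count was 5 by limma on log2(FPKM + 1) and 2 by glmTreat against a log2 fold change of 1. The filters on FPKM removed Tdgf1 and Bmp8a from the limma fits, Acvr2a, Gdf6 and Gdf9 fell short of the fold or the adjusted p on log2(FPKM + 1), Id3 was gained, and glmTreat asks more by construction. At an adjusted p of at most 0.01 the count was 6. Over fits with single libraries left out it was lowest at 5, when APPswe replicate 3 was omitted, and highest at 17, when control replicate 2 was, with Gdf5 and Gdf10, not tested with all libraries, among them. The count at the adjusted p alone ranged from 12 to 39, the highest again for control replicate 2. DESeq2 called 11, with Bmp6 and Id3 added. None of the 9 genes called with all libraries changed direction under the alternatives run, and they kept it within both styles of library name. Their groups did not overlap, so the split by name style could not have given another direction. Leaving out a library could hardly have done so either.

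Replicate numbers are shared between the groups. Deviations of same-numbered libraries from their group means correlated at 0.0838, -0.0432 and 0.190 for numbers 1, 2 and 3 across genes. Libraries of unlike number correlated at -0.258 to 0.146, so the check did not show a pairing. With so few libraries in each group it cannot exclude one. With the replicate block 6 genes were called, without Grem1, Inha and Tdgf1, and 14 met the adjusted p.

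Medians by role moved by more than the replicate spread as follows. The median over all genes was itself 0.07 without TMM and 0.07 and 0.08 with limma on log2(FPKM + 1) and log2(FPKM + 0.1), against 0.00 as reported, and the role medians under these settings are not corrected for it. Other causes were not tested. Ligands gave -0.26 and -0.27 with limma on log2(FPKM + 1) and log2(FPKM + 0.1), fits that tested 51 members against 55 in the main fit. Ligand medians without control replicate 2 or 3, and with at least 10 counts in every library, stand with the medians by role above. Receptors gave 0.50 without TMM, 0.27 with limma on log2(FPKM + 1) and 0.30 to 0.48 with single libraries left out. Targets gave 1.05 with limma on log2(FPKM + 0.1) and 0.37 to 0.94 with libraries left out, and latency proteins 0.08 to 0.32. Smads gave 0.10 without TMM, 0.10 and 0.12 with limma, 0.00 with the name style as a covariate and -0.02 to 0.07 with libraries left out. Low counts limit Bmp8a, Tdgf1, Gdf9 and the 9 genes not tested.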
